A study of Mus musculus with 31 samples.

Results

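Pou5f1, Nanog, Sox2, Sall4, Lin28a, Zfp42, Utf1 and L1td1, genes expressed in undifferentiated embryonic stem cells, were followed through fetal gonad development in the mouse. These 8 genes were chosen by name, out of 18194 genes measured. Of the 12 probe sets on the array that carry only 1 of their symbols, each gene is represented by the one whose mean over the arrays was highest. RNA came from whole gonads and was hybridised to Affymetrix arrays, 1 sample per array. Ages are given in dpc, days post coitum, and were 12, 14 and 16. Embryos were homozygous Wv/Wv or wild type at every age and of both sexes. Wv/Wv testes gave 3, 2 and 3 arrays at 12, 14 and 16 dpc, and wild-type testes gave 1, 3 and 3. Wv/Wv ovaries gave 2, 3 and 3 arrays at these ages, and wild-type ovaries gave 2, 3 and 3. Wv is a point mutation of Kit, the receptor that primordial germ cells need to survive and migrate, so Wv/Wv gonads hold few germ cells while their somatic cells form a gonad. Since the mutation changes the protein, the level of Kit mRNA does not check the labels. The labels call the 31 samples biological replicates without naming embryos or pools, so p-values measure only the spread between these samples. The strain background is not given in the sources used here.

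Primordial germ cells and the fetal germ cells that follow them express much of the pluripotency network of the early embryo. In the textbook account, fetal ovarian germ cells shut the network down as they enter meiosis, while fetal testicular germ cells shut it down as they stop dividing and commit to the male pathway. Pou5f1 (OCT4), Sox2 and Nanog encode DNA-binding factors that occupy many promoters and enhancers together, Sall4 and Zfp42 (REX1) encode zinc finger proteins, Utf1 encodes a chromatin-associated protein, and Lin28a and L1td1 encode RNA-binding proteins. In whole gonads, fewer germ cells and less RNA per germ cell cannot be told apart.

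The octamer bound by OCT4 and the core motif bound by SOX2 lie next to each other in the Nanog promoter. The promoters are shown for their sequence, and their part in the members' changes was not tested. RefSeq promoter windows of GRCm38.p6, from 250 bases before to 50 bases after a start, were found for 7 of the 8 genes (9 windows), with none for Sall4. The octamer was searched as ATGCAAA and the SOX core as CATTGT, each on both strands. Capitals mark the matches, which in Nanog and Zfp42 are on the reverse strand of the window (TTTGCAT and ACAATG). The windows with an octamer are Nanog at chr6:122707315-122707614 (plus strand), Sox2 at chr3:34649745-34650044 (plus strand) and Zfp42 at chr8:43306960-43307259 (minus strand), each printed 5′ to 3′ along its gene.
Nanog: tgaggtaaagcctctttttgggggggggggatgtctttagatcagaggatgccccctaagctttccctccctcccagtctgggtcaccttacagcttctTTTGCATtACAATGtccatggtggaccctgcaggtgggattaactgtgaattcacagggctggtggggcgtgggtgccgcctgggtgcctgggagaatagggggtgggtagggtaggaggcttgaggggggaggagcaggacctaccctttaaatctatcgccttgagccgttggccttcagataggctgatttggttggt
Sox2: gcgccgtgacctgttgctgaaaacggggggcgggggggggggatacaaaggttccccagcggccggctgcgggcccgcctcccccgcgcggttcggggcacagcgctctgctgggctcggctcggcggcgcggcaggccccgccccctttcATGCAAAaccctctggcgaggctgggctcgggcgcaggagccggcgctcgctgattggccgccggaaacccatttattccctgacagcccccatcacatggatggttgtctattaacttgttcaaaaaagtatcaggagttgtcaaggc
Zfp42: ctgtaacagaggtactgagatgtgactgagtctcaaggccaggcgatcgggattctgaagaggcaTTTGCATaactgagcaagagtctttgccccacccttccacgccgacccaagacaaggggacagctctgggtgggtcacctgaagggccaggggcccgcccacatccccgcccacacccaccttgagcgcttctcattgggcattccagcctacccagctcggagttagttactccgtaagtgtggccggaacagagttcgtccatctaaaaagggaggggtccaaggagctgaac
ATGCAAA occurred in windows of 3 members, beginning 151 bases before the start of Nanog in the window printed, 99 before that of Sox2 and 185 before that of Zfp42. The second Nanog window overlaps the first, and its octamer begins 75 bases before its start. Of all 32851 windows 4.63% held ATGCAAA and 12.6% held CATTGT, which was found in windows of 3 members (Nanog, Lin28a and Pou5f1). Both motifs side by side, CATTGT then 1 base then ATGCAAA, occurred in 2 of the 32851 windows (0.00609%). Both were the overlapping windows of Nanog, which hold the same site. A match describes these letters only, and binding was not measured.

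Signals are log2 RMA values, so a difference of 1 is a 2-fold change, and levels are compared between samples for 1 probe set, never between probe sets. Over all arrays 40% of values lay under 5.39, which serves here as a floor below which a signal has no order. The arrays fell into 2 kinds by the spread of their values. On 10 arrays the SD over probe sets was 1.77 to 2.18 and the 3′ Gapdh control exceeded the 5′ control by 0.70 ± 0.19 (SD), while on the other 21 the SD was 2.33 to 2.39 and the excess 2.01 ± 0.19. The 10 narrow arrays include all 3 wild-type ovaries at 16 dpc, so age and array kind cannot be told apart there except against the single narrow array at 14 dpc. Wild-type testis array 1 at 16 dpc was the extreme, with the lowest SD (1.77) and the lowest mean of 11 housekeeping genes (10.03). The next lowest were 2.01 and 10.68, on Wv/Wv ovary array 3 at 14 dpc. That testis array stayed in the main fit. The tissue labels matched their markers, since a list of 10 Sertoli genes averaged 8.03 to 8.37 on wild-type testis arrays at 16 dpc and 6.45 to 6.78 on wild-type ovary arrays, and 8 pregranulosa genes averaged 6.41 to 7.28 in these testes and 9.33 to 9.68 in these ovaries. The 12 listed germ cell genes averaged 4.55 to 5.50 on the 16 Wv/Wv arrays and 6.35 to 9.42 on the 15 wild-type arrays, and between 7 and 9 of the 12 were under the floor on every array of each Wv/Wv group. Wv/Wv ovary array 1 at 14 dpc had the most germ cell signal among Wv/Wv arrays, with 6.46 for Ddx4 and 7.54 for Dazl.

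**Figure D1:**
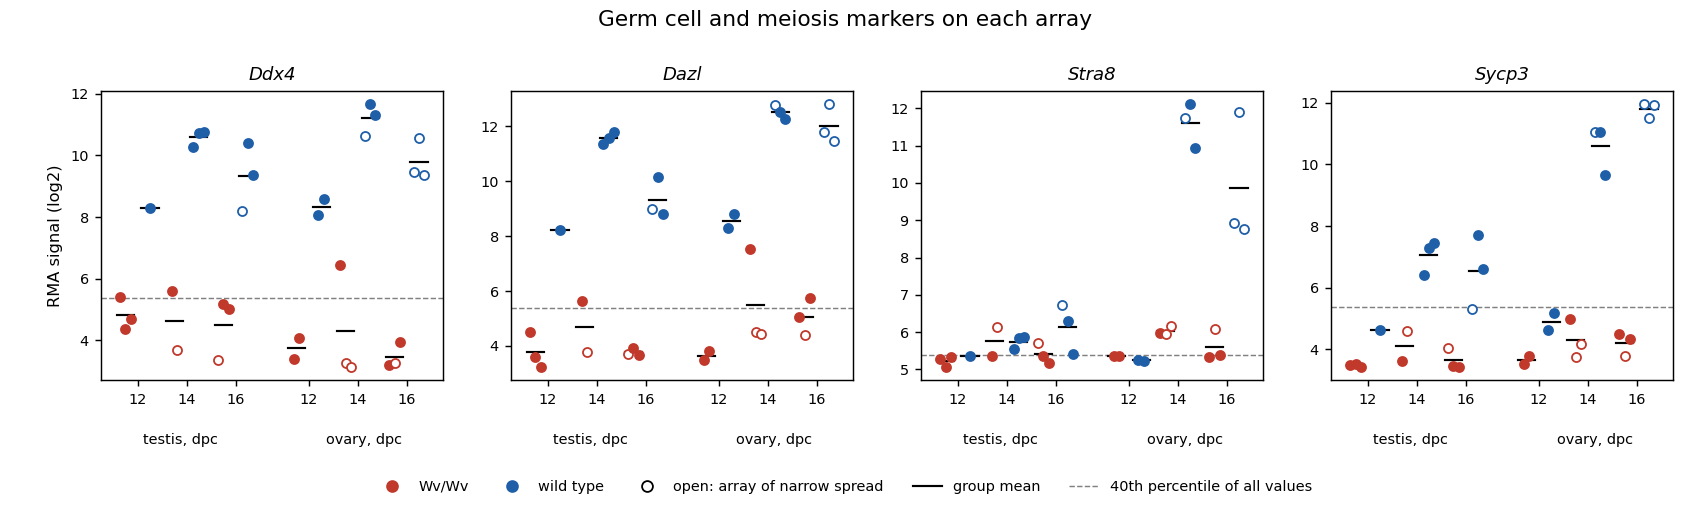
Log2 signal of the germ cell genes Ddx4 and Dazl and the meiosis genes Stra8 and Sycp3 on each of 31 arrays (points, Wv/Wv in red left of wild type in blue at each age; open points are arrays of narrow spread, bars are group means, the dashed line is the floor at 5.39). Ddx4 and Dazl were high on all wild-type arrays, and Stra8 and Sycp3 reached their highest levels in wild-type ovaries from 14 dpc.

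All 8 genes were called lower in Wv/Wv than in wild-type gonads at 14 dpc, in testes, where 0.594% of all genes were called lower, and in ovaries, where 4.08% were. For all 8 every Wv/Wv array lay below every wild-type array of the same gonad, which held for 14.9% of all genes in testes and 10.9% in ovaries. Pou5f1, the factor most used to mark the germ line, had 5.23 and 4.92 in Wv/Wv testes at 14 dpc, against 9.31, 8.71 and 9.65 in wild-type testes. In ovaries it had 5.27, 5.11 and 4.94 in Wv/Wv, against 9.05, 9.67 and 9.43 in wild type. Every Wv/Wv array was under the floor for Pou5f1 at this age, so the difference is a bound: at least 14.3-fold lower in Wv/Wv testes and at least 16.0-fold lower in Wv/Wv ovaries. The fitted changes were -4.15 ± 0.57 in testes (SE, adjusted p = 9.39e-05, limma) and -4.28 ± 0.51 in ovaries (adjusted p = 4.49e-06). Sox2, the partner of OCT4 on DNA, had 3.10 and 3.28 in Wv/Wv testes, against 8.14, 7.79 and 8.79 in wild type. In ovaries Sox2 had 4.28, 3.32 and 2.75 in Wv/Wv, against 7.95, 9.53 and 9.10 in wild type. These Wv/Wv arrays were all under the floor, which makes Sox2 at least 7.23-fold lower in testes (adjusted p = 0.000949) and at least 11.1-fold lower in ovaries (adjusted p = 3.03e-05). Nanog, the homeodomain factor of the core network, was dim throughout, with 4.02 and 3.94 in Wv/Wv testes against 6.48, 5.60 and 6.52 in wild type. In ovaries Nanog had 3.89, 3.93 and 4.22 in Wv/Wv, against 5.62, 5.63 and 5.84 in wild type. Its bounds were therefore small, at least 1.76-fold lower in testes (adjusted p = 1.09e-05) and at least 1.24-fold lower in ovaries (adjusted p = 2.86e-05).

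Zfp42, a zinc finger protein used as a marker of naive pluripotency, had 3.71 and 4.06 in Wv/Wv testes at 14 dpc, against 6.76, 7.09 and 7.64 in wild type. In ovaries Zfp42 had 3.79, 3.61 and 4.57 in Wv/Wv, against 6.70, 7.78 and 7.47 in wild type. Its levels were thus well apart between genotypes in either gonad. The bounds for Zfp42 were at least 3.43-fold lower in testes (adjusted p = 2.59e-05) and at least 3.81-fold lower in ovaries (adjusted p = 1.13e-06). Sall4, a zinc finger factor needed for germ cell development, changed by -3.66 ± 0.74 in testes (adjusted p = 0.011) and -3.69 ± 0.66 in ovaries (adjusted p = 0.000922). Lin28a, which blocks maturation of the let-7 microRNAs, changed by -3.55 ± 0.62 in testes (adjusted p = 0.00216) and -4.41 ± 0.55 in ovaries (adjusted p = 9.01e-06). L1td1, an RNA-binding protein derived from a retrotransposon, changed by -3.59 ± 0.41 in testes (adjusted p = 1.09e-05) and -1.58 ± 0.37 in ovaries (adjusted p = 0.0104). Utf1 had the smallest fitted changes, -1.53 ± 0.35 in testes (adjusted p = 0.0382) and -1.18 ± 0.31 in ovaries (adjusted p = 0.0289), and its probe set stayed above the floor on all 16 Wv/Wv arrays, between 5.91 and 7.27. The 8 members' median change was -3.57 in testes and -3.51 in ovaries, against medians of 0.01 and 0.00 over all genes.

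**Figure D2:**
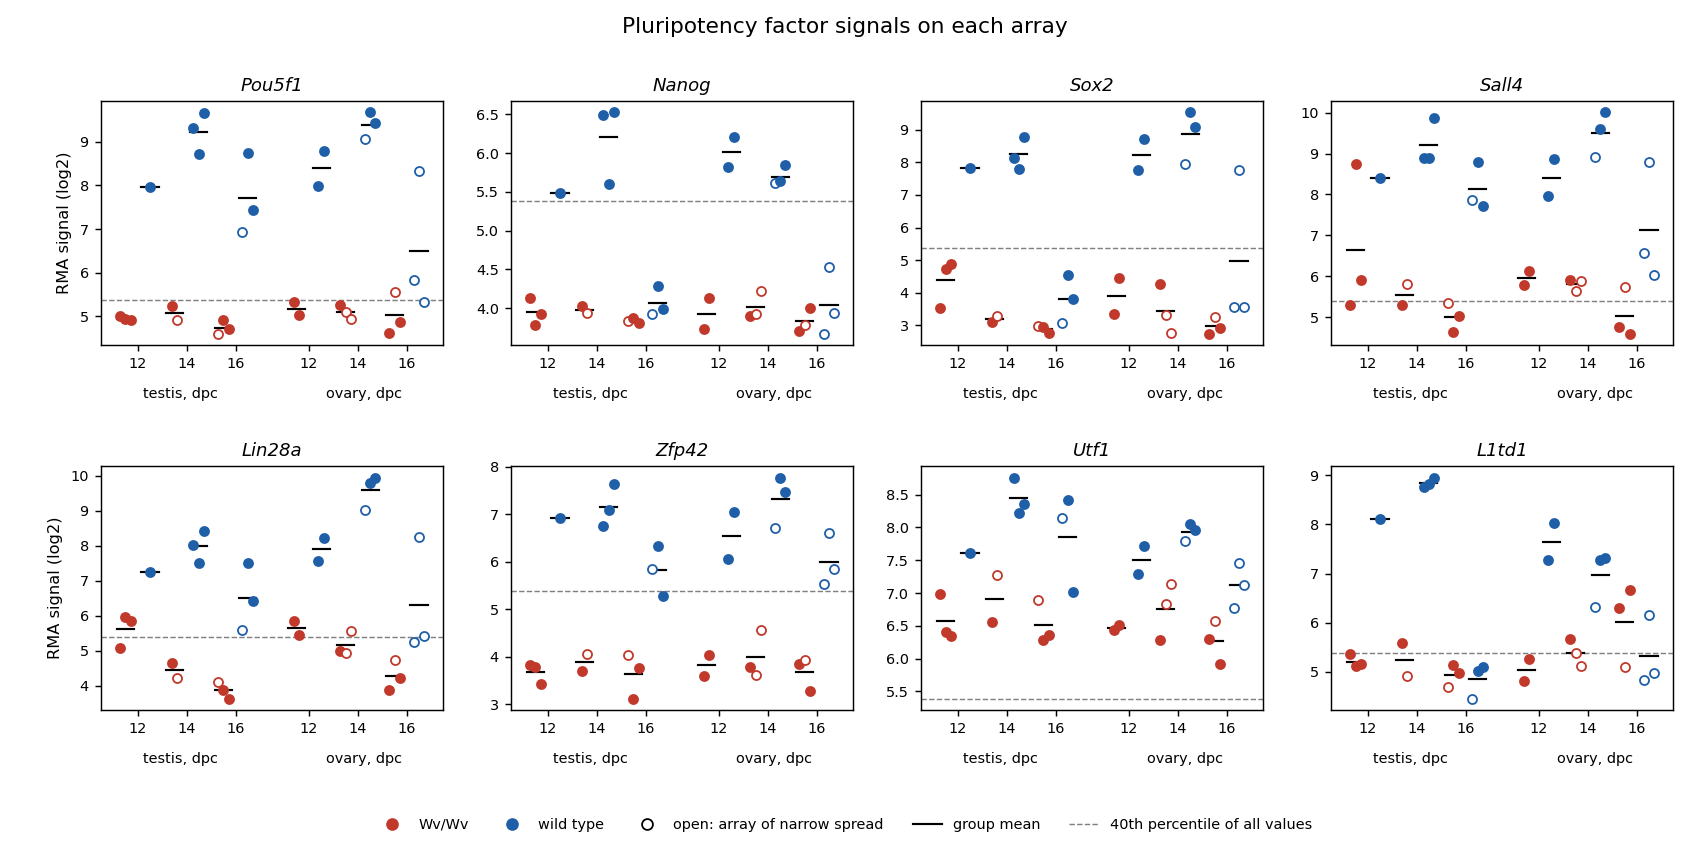
Log2 signal of the 8 pluripotency factors on each of 31 arrays (points, Wv/Wv in red left of wild type in blue at each age, testis left and ovary right; open points are arrays of narrow spread, bars are group means, the dashed line is the floor at 5.39). At 14 dpc every wild-type array lies above every Wv/Wv array of the same gonad, and at 16 dpc Nanog, Sox2 and L1td1 lie below the floor on all 3 wild-type testis arrays.

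With Wv/Wv testis array 2 left out, which leaves 1 Wv/Wv testis array at 14 dpc (taken to vary like the other groups), 5 of the 8 were called in testes, and leaving out 1 array at a time in ovaries kept between 6 and 8. The differences were present within each kind of array: in ovaries the members' median was -2.88 between narrow arrays (2 Wv/Wv, 1 wild type) and -3.86 between wide arrays (1 Wv/Wv, 2 wild type), and in testes it was -3.39 between wide arrays (1 Wv/Wv, 3 wild type). Of 12 germ cell genes 8 were lower in Wv/Wv testes and 11 in Wv/Wv ovaries at 14 dpc, and of 13 meiosis genes 8 and 12 were. Among somatic lists limma called 0 of 10 Sertoli genes (1 in testes and 2 in ovaries at an unadjusted p under 0.05) and 0 of 8 pregranulosa genes (0 and 1). Over all 18194 genes 108 were called in testes and 795 in ovaries, so a count of 0 in lists this short is near that share. In ovaries 2 of 8 mesonephros genes were higher in Wv/Wv, where 53 of 18194 genes were called higher. The mesonephros list averaged 7.03 to 7.17 in Wv/Wv and 6.30 to 6.64 in wild type. Of 7 erythroid genes 4 were lower in Wv/Wv ovaries, where 4.08% of all genes were called lower. The erythroid list averaged 5.93 to 6.15 in Wv/Wv and 7.03 to 8.94 in wild type. The part of erythroid or mesonephric RNA in the members' differences was not tested.

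At 12 dpc the same direction was seen for all 8 genes, and fewer passed the test. The mesonephros list averaged 6.29 to 7.77 on Wv/Wv testis arrays, against 6.395 in wild type. In ovaries it averaged 7.59 to 8.06 in Wv/Wv and 6.78 to 7.91 in wild type. The Sertoli list averaged 7.48 to 8.54 in Wv/Wv testes, against 8.27 in wild type. The part of other tissue in the members' differences was not tested at this age. In testes Zfp42 had 3.84, 3.78 and 3.42 in Wv/Wv, against 6.92 on the only wild-type array, a change of -3.24 ± 0.51 (adjusted p = 0.0175, at least 2.89-fold lower). L1td1 had 5.36, 5.11 and 5.15 in Wv/Wv testes, against 8.12 in wild type (-2.91 ± 0.52, adjusted p = 0.0376, at least 6.63-fold lower). These 2 of the 8 were called, where 0.033% of all genes were called lower. The spread of wild-type testes at 12 dpc was not measured: the lone array was taken to vary like the other groups, and the calls rest on that array. Without Wv/Wv array 1 only 1 member was called, and without array 2 or array 3 none was. Pou5f1 (-3.01 ± 0.72, adjusted p = 0.403), Sox2 (-3.45 ± 1.04, adjusted p = 1.0) and Nanog (-1.54 ± 0.32, adjusted p = 0.117) did not pass the test in testes.

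In ovaries at 12 dpc 4 of the 8 were called, where 0.0934% of all genes were called lower. Nanog had 3.73 and 4.13 in Wv/Wv, against 5.82 and 6.21 in wild type (-2.09 ± 0.28, adjusted p = 0.00237). Zfp42 had 3.60 and 4.05 in Wv/Wv ovaries, against 6.05 and 7.05 in wild type (-2.73 ± 0.44, adjusted p = 0.00757). L1td1 had 4.82 and 5.26 in Wv/Wv, against 7.27 and 8.03 in wild type (-2.61 ± 0.45, adjusted p = 0.0129), and Pou5f1 had 5.33 and 5.03 in Wv/Wv, against 8.00 and 8.79 in wild type (-3.21 ± 0.62, adjusted p = 0.0359). All 8 genes had both Wv/Wv arrays below both wild-type arrays, as did 17.5% of all genes. Sox2 had 3.36 and 4.46 in Wv/Wv, both under the floor, against 7.76 and 8.71 in wild type, and missed the threshold (adjusted p = 0.0639). With 2 arrays per group the count rested on single arrays: none of the 8 was called without wild-type array 2 or without Wv/Wv array 1, and 1 was called without Wv/Wv array 2.

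**Figure D3:**
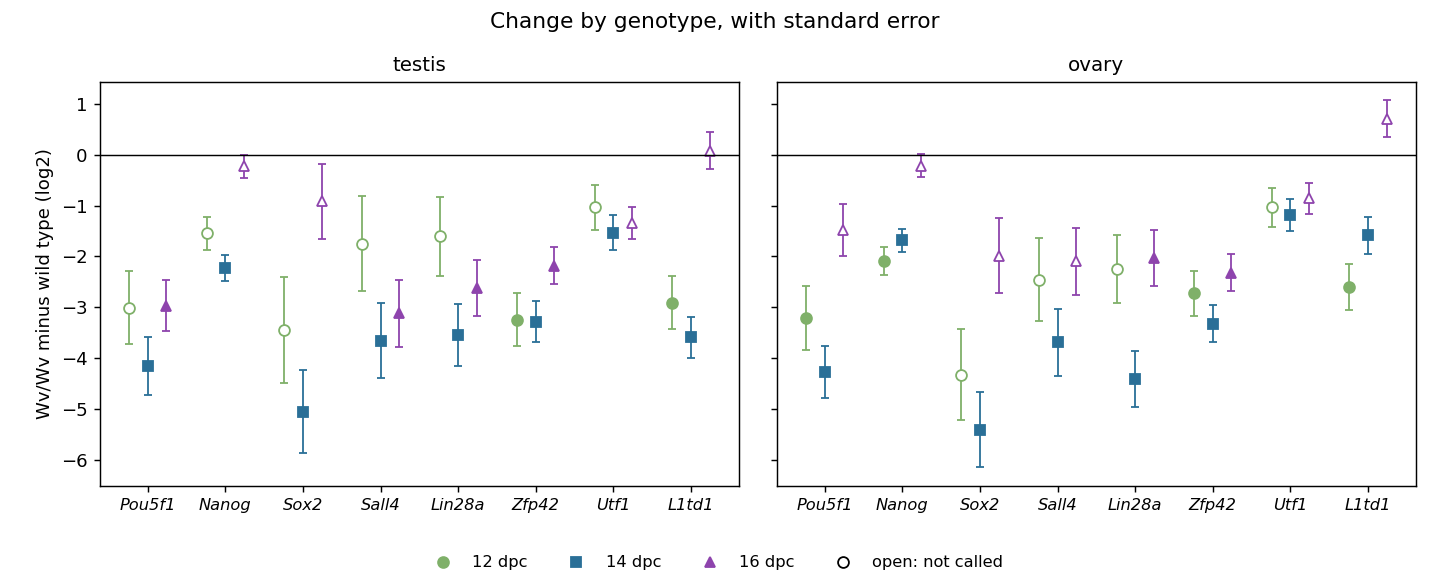
Wv/Wv minus wild-type difference (log2, points) with its standard error (bars) for the 8 genes in testes (left) and ovaries (right) at 12, 14 and 16 dpc; filled points passed an adjusted p of 0.05 and open points did not. All 8 are filled at 14 dpc in both gonads, and at 16 dpc Nanog and L1td1 lie near or above 0 in both.

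Between 12 and 14 dpc no member changed past the threshold in wild-type gonads. In testes 0 of the 8 were called by limma (1 at an unadjusted p under 0.05, 0.786% of all genes called in either direction), and in ovaries also 0 (1 at an unadjusted p under 0.05, 2.59% of all genes called). For Pou5f1, Sox2, Sall4 and Lin28a the group means ran in 1 order, highest in ovaries at 14 dpc, then testes at 14 dpc, ovaries at 12 dpc and the testis array at 12 dpc. The means of Pou5f1 were 9.38 ± 0.31 in ovaries at 14 dpc (SD, n = 3), 9.23 ± 0.48 in testes at 14 dpc (n = 3), 8.39 ± 0.56 in ovaries at 12 dpc (n = 2) and 7.96 on the testis array at 12 dpc. Neighbours in this order did not differ past the threshold where they were tested. Zfp42 had its highest means in the same 2 groups, 7.32 ± 0.55 in ovaries and 7.16 ± 0.44 in testes at 14 dpc. Nanog and Utf1 were highest in testes at 14 dpc, at 6.20 ± 0.52 and 8.44 ± 0.28. L1td1 also had its highest mean there (8.85 ± 0.10, n = 3), and had lower ones in ovaries at 12 dpc (7.65 ± 0.54, n = 2) and 14 dpc (6.98 ± 0.56, n = 3).

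In wild-type testes Nanog, Sox2 and L1td1 fell between 14 and 16 dpc, and the other 5 genes did not pass the test. L1td1 had 4.45, 5.02 and 5.11 at 16 dpc, against 8.75, 8.82 and 8.96 at 14 dpc, a change of -3.98 ± 0.37 (adjusted p = 9.23e-07). All 3 later arrays were under the floor, which makes L1td1 at least 11.0-fold lower at 16 dpc. Sox2 had 3.08, 4.56 and 3.82 at 16 dpc, against 8.14, 7.79 and 8.79 at 14 dpc (-4.42 ± 0.74, adjusted p = 0.00182, at least 7.23-fold lower). Nanog had 3.92, 4.28 and 3.99, against 6.48, 5.60 and 6.52 (-2.14 ± 0.23, adjusted p = 5.5e-06, at least 1.76-fold lower). Of all genes 0.462% were called lower between these ages. The germ cell markers Dazl and Ddx4 also had lower means at 16 dpc. The 12 listed germ cell genes as a set did not, averaging 8.24 at 14 dpc and 8.28 at 16 dpc. Single arrays ranged from 7.97 to 8.43 at 14 dpc and from 7.42 to 9.20 at 16 dpc. Dazl, a germ cell RNA-binding protein, had 8.99, 10.15 and 8.80 at 16 dpc, against 11.36, 11.56 and 11.79 at 14 dpc (-2.26 ± 0.60, adjusted p = 0.0931). Ddx4, a germ cell RNA helicase, had 8.20, 10.40 and 9.35 at 16 dpc, against 10.29, 10.73 and 10.77 at 14 dpc (-1.27 ± 0.69, adjusted p = 0.349). Neither passed the test, and their part in the members' falls was not tested.

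Pou5f1 in the same testes had 6.94, 8.74 and 7.44 at 16 dpc, against 9.31, 8.71 and 9.65 at 14 dpc (-1.52 ± 0.51, adjusted p = 0.216), and array 2 at 16 dpc lay just above the lowest array at 14 dpc. Sall4 had 7.86, 8.80 and 7.71 at 16 dpc, against 8.88, 8.88 and 9.86 at 14 dpc (-1.09 ± 0.66, adjusted p = 0.37). Zfp42 had 5.85, 6.33 and 5.27, against 6.76, 7.09 and 7.64 (-1.35 ± 0.36, adjusted p = 0.096), and Lin28a had 5.58, 7.49 and 6.40, against 8.02, 7.51 and 8.43 (-1.49 ± 0.55, adjusted p = 0.255). Utf1 changed least (-0.58 ± 0.31, adjusted p = 0.344). Over the 8 genes the later arrays 1, 2 and 3 lay at a median of -2.28, -0.66 and -1.84 from the 14 dpc mean, so array 2 was nearest to the earlier state. Array 1 is of the narrow kind, and between wide arrays alone (2 at 16 dpc, 3 at 14 dpc) L1td1 differed by -3.78, Sox2 by -4.05, Nanog by -2.06 and Pou5f1 by -1.13.

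Set against 12 dpc, the same 3 genes were called lower in wild-type testes at 16 dpc, where 0.704% of all genes were: L1td1 by -3.26 ± 0.52 (adjusted p = 0.000727), Nanog by -1.42 ± 0.32 (adjusted p = 0.0179) and Sox2 by -4.01 ± 1.04 (adjusted p = 0.0486). Pou5f1 differed by -0.25 ± 0.72, Sall4 by -0.27 ± 0.93 and Utf1 by 0.25 ± 0.44 between these ages, with adjusted p from 0.824 to 0.91. The 12 dpc testis group is a single array whose spread was not measured and was taken from the other groups, and with only these 4 arrays in the fit 0 members were called (304 of all genes at an unadjusted p under 0.05, 0 called).

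In wild-type ovaries 5 of the 8 fell between 14 and 16 dpc, where 0.275% of all genes were called lower: Pou5f1, Nanog, Sox2, Lin28a and L1td1. The later arrays were not alike. Pou5f1 had 5.84, 8.34 and 5.34 at 16 dpc, against 9.05, 9.67 and 9.43 at 14 dpc (-2.88 ± 0.51, adjusted p = 0.0126). Sox2 had 3.56, 7.76 and 3.56 at 16 dpc, against 7.95, 9.53 and 9.10 at 14 dpc (-3.90 ± 0.74, adjusted p = 0.0166). Arrays 1 and 3 were at or near the floor for Pou5f1 and under it for Sox2, while array 2 lay far above both and below every earlier array. Lin28a had 5.25, 8.25 and 5.41, against 9.00, 9.78 and 9.94 (-3.27 ± 0.55, adjusted p = 0.0106). Nanog had 3.67, 4.53 and 3.93, against 5.62, 5.63 and 5.84 (-1.65 ± 0.23, adjusted p = 0.00195), and all 3 later arrays were under the floor. L1td1 had 4.83, 6.15 and 4.98, against 6.33, 7.28 and 7.32 (-1.66 ± 0.37, adjusted p = 0.0431; adjusted p = 0.0581 with the replicate block). Sall4 (-2.37 ± 0.66, adjusted p = 0.14), Zfp42 (-1.32 ± 0.36, adjusted p = 0.134) and Utf1 (-0.81 ± 0.31, adjusted p = 0.273) missed the threshold.

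Wild-type ovary array 2 at 16 dpc stood apart from arrays 1 and 3 in germ cell genes as well. Over the 8 members it lay at a median of -0.94 from the 14 dpc mean, while arrays 1 and 3 lay at -2.54 and -2.73. It had 11.90 for Stra8, the retinoic acid target that opens meiosis, against 8.91 and 8.76 on arrays 1 and 3, and the 14 dpc ovaries had 11.75, 12.11 and 10.95. Sycp3, a protein of the meiotic chromosome axis, was 11.50 on array 2, and 11.95 and 11.93 on the others. Ddx4 was 10.58 on array 2, against 9.48 and 9.36, and Dazl was 12.80, against 11.78 and 11.46. With array 2 left out, 7 of the 8 fell between 14 and 16 dpc, where 0.934% of all genes were called lower: Sox2 by -5.30, Lin28a by -4.25, Pou5f1 by -3.80, Sall4 by -3.20, L1td1 by -2.07, Nanog by -1.90 and Zfp42 by -1.62. Array 2 at 16 dpc was singled out by its high values for these same genes. Leaving it out was bound to make the falls larger, so these sizes and calls are no separate support. For the results below without this array, the choice likewise rests on values already seen. Without wild-type array 1 or array 3 at 16 dpc, or without array 2 or array 3 at 14 dpc, 1 member was called in each case. All 3 arrays at 16 dpc are narrow, and against the single narrow array at 14 dpc Sox2 differed by -2.99, Lin28a by -2.70, Pou5f1 by -2.55, Nanog by -1.57 and L1td1 by -1.01.

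**Figure D4:**
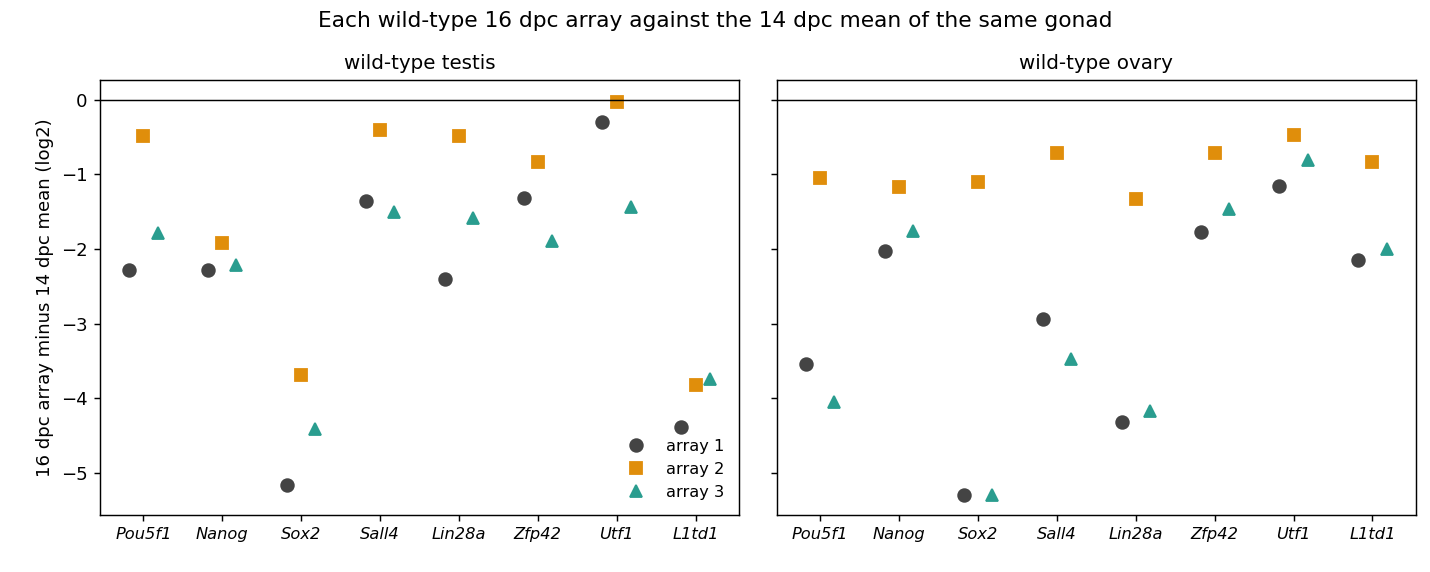
Log2 signal of each wild-type array at 16 dpc minus the mean of the 3 wild-type arrays at 14 dpc of the same gonad, for the 8 genes in testis (left) and ovary (right), with 1 symbol per array. In ovaries array 2 lies above arrays 1 and 3 for every gene, and in testes Sox2 and L1td1 lie below -3 on all 3 arrays.

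Set against 12 dpc, 4 of the 8 were called lower in wild-type ovaries at 16 dpc, where 4.67% of all genes were: L1td1 by -2.33 ± 0.41 (adjusted p = 0.000768), Nanog by -1.97 ± 0.25 (adjusted p = 1.7e-05), Sox2 by -3.27 ± 0.82 (adjusted p = 0.0169) and Pou5f1 by -1.89 ± 0.57 (adjusted p = 0.0435). Without array 2 at 16 dpc Lin28a joined them (-2.56), which made 5, where 3.94% of all genes were called lower. Without array 1 or array 3 at 16 dpc, or without either array at 12 dpc, 2 were called. Zfp42 (-0.55 ± 0.41, adjusted p = 0.334) and Utf1 (-0.38 ± 0.35, adjusted p = 0.433) did not pass the test.

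Comparison with Wv/Wv gonads of the same age shows which members still stood out at 16 dpc. In testes 4 of the 8 were lower in Wv/Wv, where 0.484% of all genes were called lower. Pou5f1 had 4.60, 4.92 and 4.71 in Wv/Wv testes, against 6.94, 8.74 and 7.44 in wild type (-2.97 ± 0.51, adjusted p = 0.00264, at least 5.00-fold lower). Sall4 had 5.34, 4.64 and 5.03 in Wv/Wv, against 7.86, 8.80 and 7.71 (-3.12 ± 0.66, adjusted p = 0.0215, at least 6.66-fold lower). Lin28a had 4.11, 3.87 and 3.62 in Wv/Wv, against 5.58, 7.49 and 6.40 (-2.62 ± 0.55, adjusted p = 0.0203), and Zfp42 had 4.03, 3.12 and 3.75, against 5.85, 6.33 and 5.27 (-2.18 ± 0.36, adjusted p = 0.00177). Utf1 lay at the threshold, with 6.90, 6.29 and 6.36 in Wv/Wv and 8.15, 8.42 and 7.01 in wild type (-1.35 ± 0.31, adjusted p = 0.0524). The 3 genes that had fallen since 14 dpc were not shown to differ: L1td1 by 0.08 ± 0.37 (adjusted p = 0.946), Nanog by -0.23 ± 0.23 (adjusted p = 0.748) and Sox2 by -0.92 ± 0.73 (adjusted p = 0.715). Both groups were under the floor for all 3 genes. Without wild-type array 2, or without Wv/Wv array 2 or array 3, 2 of the 8 were called. The 4 called genes differed the same way between narrow arrays, 1 against 1, and between wide arrays, 2 against 2 (Pou5f1 by -2.34 and -3.28, Zfp42 by -1.82 and -2.37).

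In ovaries at 16 dpc 2 of the 8 were lower in Wv/Wv, where 2.35% of all genes were called lower. Zfp42 had 3.84, 3.93 and 3.27 in Wv/Wv ovaries, against 5.54, 6.60 and 5.86 in wild type (-2.32 ± 0.36, adjusted p = 0.000231, at least 1.53-fold lower). All 3 wild-type ovaries were above the floor for Zfp42 and all Wv/Wv ovaries were below it. Lin28a had 3.87, 4.73 and 4.21 in Wv/Wv, against 5.25, 8.25 and 5.41 in wild type (-2.03 ± 0.55, adjusted p = 0.0395), and its wild-type signal on arrays 1 and 3 was at the floor. Sall4 (-2.10 ± 0.66, adjusted p = 0.0762), Pou5f1 (-1.48 ± 0.51, adjusted p = 0.0985), Sox2 (-1.99 ± 0.74, adjusted p = 0.118), Utf1 (-0.86 ± 0.31, adjusted p = 0.112) and Nanog (-0.22 ± 0.23, adjusted p = 0.556) missed the threshold. L1td1 ran the other way without passing the test, with 6.30, 5.10 and 6.68 in Wv/Wv against 4.83, 6.15 and 4.98 in wild type (0.71 ± 0.37, adjusted p = 0.24). Without wild-type array 2, Zfp42 alone was called (-2.02, adjusted p = 0.0037), where 1.63% of all genes were called lower. Without Wv/Wv array 1 or array 3, 1 member was called, and without Wv/Wv array 2, which is the narrow one of its group, 5 were. Zfp42 differed by -2.07 between that narrow Wv/Wv array and the 3 narrow wild-type arrays. Of the 13 meiosis genes 12 were lower in Wv/Wv ovaries at this age, with a median change of -5.18. Of 7 erythroid genes 2 were also lower there, at 6.07 to 6.46 on average in Wv/Wv and 7.49 to 8.90 in wild type, and their part in the result was not tested.

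The 2 gonads were then compared directly. At 14 dpc L1td1 was the 1 member called between wild-type testes and ovaries, where 5.93% of all genes were called in either direction. It had 8.75, 8.82 and 8.96 in testes, against 6.33, 7.28 and 7.32 in ovaries (1.87 ± 0.37, adjusted p = 0.00157). Lin28a ran the other way, with 8.02, 7.51 and 8.43 in testes against 9.00, 9.78 and 9.94 in ovaries (-1.59 ± 0.55, adjusted p = 0.106). A term for array kind, in a fit without testis array 1 at 16 dpc, brought Lin28a past the threshold (adjusted p = 0.0403). That fit called 3270 of all 18194 genes, so its count of 2 members is near the share of all genes. Leaving out testis array 2 also brought Lin28a past the threshold, which gave 2 called members. The second Lin28a probe set, 1421749_at, had 4.75, 4.21 and 3.98 in testes at 14 dpc, against 6.99, 6.22 and 6.55 in ovaries, and was called when every probe set was tested (-2.28 ± 0.40, adjusted p = 0.000707). On that probe set only ovaries at 14 dpc and ovary array 2 at 16 dpc (6.52) were above the floor, and the change between 12 and 14 dpc in ovaries was 2.13 ± 0.45 (adjusted p = 0.0102). The chosen Lin28a probe set changed by 1.68 ± 0.61 between these ages (adjusted p = 0.214), so the 2 probe sets differ in which samples they detect.

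No member was called between wild-type testes and ovaries at 12 dpc (0 by limma, 0 at an unadjusted p under 0.05, with 0.253% of all genes called) or at 16 dpc (0 by limma, 2 at an unadjusted p under 0.05, with 9.65% of all genes called). With ovary array 2 at 16 dpc left out Pou5f1 was higher in testes (2.12, adjusted p = 0.000914). Leaving out testis array 1 or testis array 3 also gave 1 called member. In Wv/Wv gonads the members did not differ between testis and ovary past the threshold at 12 dpc (0 called, 0 at an unadjusted p under 0.05, 0.374% of all genes called), 14 dpc (0 and 0, 3.69%) or 16 dpc (0 and 1, 6.96%). The 1 at 16 dpc was L1td1, with 4.69, 5.14 and 4.97 in testes against 6.30, 5.10 and 6.68 in ovaries (-1.09 ± 0.37, adjusted p = 0.084), and 1 member was called without ovary array 2.

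Whether the loss between 14 and 16 dpc differed between the gonads was tested as an interaction. For wild-type gonads 0 of the 8 passed (2 at an unadjusted p under 0.05), where 0.126% of all genes were called. L1td1 came nearest, with a larger loss in testes (-2.33 ± 0.52, testis minus ovary, adjusted p = 0.0972). With a term for array kind it passed (-2.64 ± 0.41, adjusted p = 0.0021, 1 member called where 0.627% of all genes were). That fit also left out wild-type testis array 1 at 16 dpc, so the term and the missing array cannot be told apart. Without ovary array 2 at 16 dpc the 1 gene called was Lin28a, with the larger loss in ovaries (2.75, adjusted p = 0.0333). The genotype difference was not shown to depend on the gonad at 14 dpc (0 called, 1 at an unadjusted p under 0.05, 0.275% of all genes called) or at 16 dpc (0 and 0, 0.813%). At 14 dpc L1td1 had a difference of -2.01 ± 0.55 (adjusted p = 0.266), and at 16 dpc Pou5f1 passed only without wild-type ovary array 2 (-2.40, adjusted p = 0.0247).

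The change from 14 to 16 dpc was also set against that in Wv/Wv gonads. In testes Nanog and L1td1 passed, with a change higher in Wv/Wv by 1.99 ± 0.34 (adjusted p = 0.00966) and 3.67 ± 0.55 (adjusted p = 0.00372), where 0.0824% of all genes were called. Wild-type testes at 14 dpc were above the floor for both genes, while all the other testis arrays of these ages but 1 (Wv/Wv array 1 at 14 dpc for L1td1) were under it, so these sizes are fitted values only. Sox2 differed by 4.14 ± 1.10 and did not pass (adjusted p = 0.41). Without Wv/Wv testis array 1 at 14 dpc 1 member was called, and without array 2 none was. In ovaries 0 of the 8 passed (5 at an unadjusted p under 0.05), where 0.0% of all genes were called. Without wild-type ovary array 2 at 16 dpc 5 passed there (Sox2 4.82, Pou5f1 3.71, Lin28a 3.35, L1td1 2.71 and Nanog 1.71), where 0.357% of all genes were called, and without Wv/Wv ovary array 1 at 14 dpc 3 did. That Wv/Wv array was the one with the most Ddx4 and Dazl.

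In Wv/Wv gonads the chosen probe sets differed in how often they were under the floor, which does not rank the genes by expression. Of the 16 Wv/Wv arrays 16 were under it for Nanog, Sox2 and Zfp42, 15 for Pou5f1, 12 for L1td1, 11 for Lin28a, 7 for Sall4 and 0 for Utf1. Another Utf1 probe set, 1443786_at, had Wv/Wv group means of 4.75 to 5.25, all under the floor, while 1458333_x_at had some Wv/Wv arrays above it. Between 12 and 16 dpc no member changed past the threshold in Wv/Wv testes (0 by limma, 2 at an unadjusted p under 0.05, 5.39% of all genes called) or Wv/Wv ovaries (0 and 2, 3.69%). Lin28a was nearest in testes (-1.76 ± 0.55, adjusted p = 0.0661), with 4.11, 3.87 and 3.62 at 16 dpc, against 5.08, 5.96 and 5.84 at 12 dpc, and 1 member was called without testis array 1 at 12 dpc. In ovaries 1 member was called without array 2 at 16 dpc.

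On 1 Wv/Wv array Sall4 was at the level of wild type. At 12 dpc it had 5.29, 8.74 and 5.90 in Wv/Wv testes, against 8.40 in the wild-type testis, so array 2 alone was at the wild-type level. The second Sall4 probe set, 1424153_s_at, was also high there, with 4.59, 6.28 and 4.48 on the 3 arrays. Ddx4 (4.36) and Dazl (3.62) were under the floor on array 2. By its distance above the other 2 arrays of the group (2.85), Sall4 ranked 6 among 18194 genes. The same array lay above all 30 others for Clca1 (by 3.63), Hoxd13 (3.38), Fendrr (3.07) and Foxf2 (2.60), genes named after their values were seen. Hoxd13 patterns the limbs and hindgut, and Fendrr and Foxf2 are expressed in mesenchyme around the gut, and the part of other tissue in the Sall4 signal was not tested.

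Of the other probe sets, 1424153_s_at for Sall4 was called lower in Wv/Wv ovaries at 14 dpc (-2.22 ± 0.47, adjusted p = 0.00751). It missed the threshold in Wv/Wv testes at 14 dpc (-1.57 ± 0.53, adjusted p = 0.757) and 16 dpc (-1.10 ± 0.47, adjusted p = 0.838). For Lin28a, 1421749_at was called lower in Wv/Wv ovaries at 14 dpc (-2.42 ± 0.40, adjusted p = 0.000598). It missed the threshold in ovaries at 16 dpc (-1.24 ± 0.40, adjusted p = 0.0876). In testes at 14 and 16 dpc it was under the floor on all arrays and was not called (adjusted p = 0.829 and 0.838). The additional Utf1 probe sets, 1443786_at and 1458333_x_at, were called in none of the 6 genotype comparisons. Utf1 therefore rests on 1 of 3 probe sets. The Sall4 and Lin28a calls in testes, and the Lin28a call in ovaries at 16 dpc, rest on the chosen probe set alone.

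Genes that work with the members were followed through a list of 37 measured pluripotency network genes. In Wv/Wv testes 2, 18 and 5 of the 37 were called lower at 12, 14 and 16 dpc, and in Wv/Wv ovaries 5, 13 and 5, with 0 called higher in any of these comparisons. Over all genes 0.033%, 0.594% and 0.484% were called lower in Wv/Wv testes at these ages, and 0.0934%, 4.08% and 2.35% in Wv/Wv ovaries. The list's median change at 14 dpc was -1.27 in testes and -0.23 in ovaries, against -3.57 and -3.51 for the 8 members. Dppa5a, a KH-domain RNA-binding protein of pluripotent cells, changed by -5.51 ± 0.92 and -5.64 ± 0.72 in testes at 12 and 14 dpc and was not called there at 16 dpc. In ovaries it changed by -4.52 ± 0.79, -5.61 ± 0.65 and -3.05 ± 0.65 at 12, 14 and 16 dpc. Tex19.1, which limits retrotransposons in germ cells, changed by -4.99 ± 0.61 in testes and -4.96 ± 0.54 in ovaries at 14 dpc, and by -3.94 ± 0.54 and -2.60 ± 0.54 at 16 dpc. All Wv/Wv arrays were under the floor for Tex19.1 in testes at 14 dpc (at least 26.2-fold lower), in testes at 16 dpc (at least 9.12-fold) and in ovaries at 16 dpc (at least 3.99-fold). At 16 dpc Dppa4, a DNA-binding partner of Dppa2, was lower in testes (-5.16 ± 0.52, adjusted p = 1.11e-06), and Dnmt3l, a cofactor of de novo DNA methylation, was at least 4.34-fold lower (adjusted p = 1.28e-07). Further partners among the 3 with the largest fitted changes were Dppa4 in ovaries at 12 dpc (-3.39 ± 0.64), Dppa3 in ovaries at 14 dpc (-4.21 ± 0.56) and Dppa4 in testes at 14 dpc (-4.76 ± 0.58). For the remaining 3, every Wv/Wv array was under the floor and the difference is a bound: Prdm14 was at least 1.45-fold lower in ovaries at 12 dpc, Fbxo15 at least 2.79-fold lower in ovaries at 16 dpc and Lefty2 at least 2.57-fold lower in testes at 12 dpc.

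Between 14 and 16 dpc 12 of the 37 partners fell and 1 rose in wild-type testes, where 0.462% of all genes were called lower, and 8 fell in wild-type ovaries, where 0.275% were. With 1 testis array left out, between 7 and 14 partners were called lower. In ovaries 0 were called lower without array 1 or array 3 at 16 dpc or without array 3 at 14 dpc, 1 without array 2 at 14 dpc, 10 without array 1 at 14 dpc and 12 without array 2 at 16 dpc. In testes the 3 largest fitted falls were those of Dppa5a (-4.66 ± 0.65, adjusted p = 0.000197), Prdm14, a regulator of primordial germ cell specification (under the floor on all 3 arrays at 16 dpc and at least 4.02-fold lower, adjusted p = 4.65e-06), and Tcl1, a cofactor of AKT signalling (-3.30 ± 0.36, adjusted p = 6.93e-06). Dnmt3l was the gene that rose, by at least 4.34-fold (adjusted p = 4.52e-07), with all 3 arrays at 14 dpc under the floor. In ovaries the largest fitted falls were those of Tfap2c, a primordial germ cell factor (-3.46 ± 0.62, adjusted p = 0.0133), Dppa5a (-2.99 ± 0.65, adjusted p = 0.0366) and Dppa2 (-2.90 ± 0.43, adjusted p = 0.00373), and 2 of the 3 later arrays were under the floor for Tfap2c and for Dppa2.

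Likeness to each member was measured as Pearson's r of log2 signals over the 31 arrays, which share the genotype and age structure, so the values describe these samples only. Genes other than the 8 members were ranked first. Those most like Pou5f1 were Tex19.1 (r = 0.969), Dppa3 (0.968) and Trap1a (0.965), and those most like Zfp42 were Trap1a (0.966), Tex19.1 (0.946) and Dppa3 (0.942). For Nanog they were Tcl1 (0.937), Prdm14 (0.935) and Dppa5a (0.927), and for L1td1 Prdm14 (0.896), Tcl1 (0.877) and Dppa5a (0.837). Among these genes Sox2 was most like Tfap2c (0.956), Fam169a (0.950) and Dppa5a (0.946), Lin28a most like Gldc (0.948), Rhox5 (0.930) and Fam169a (0.922), Sall4 most like Dppa3 (0.900), Trim71 (0.900) and Gldc (0.898), and Utf1 most like Dppa3 (0.893), Dppa4 (0.890) and Tex19.1 (0.879). Among the members themselves r lay between 0.578 for Utf1 with L1td1 and 0.940 for Pou5f1 with Zfp42. Some member pairs exceeded these values, with r = 0.903 for Nanog and L1td1 (above every r listed for L1td1) and 0.930 for Sall4 and Lin28a (above every r listed for Sall4).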

How the data were processed

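For each of 31 arrays the authors deposited log2 RMA signals of 45101 probe sets (RMA per the submitters' processing notes). Biotin-labelled cRNA was prepared with a 3′ IVT kit, per the labels' protocols. The deposited arrays had similar medians (5.96 to 6.06), so an overall shift of RNA content is not visible. Their spreads differed (SD 1.77 to 2.39), so log2 differences that mix narrow and wide arrays are not on 1 scale. Precision is limited by how many arrays a group has. The platform annotation gave 1 symbol for 34958 probe sets and several for 932, and did not list 9211. A match by gene ID to the mouse table (34754 found) changed 0 symbols. The brightest probe set stood for each of 18194 genes. No pair of arrays within a group was a duplicate (the smallest SD of difference over 27 pairs was 0.179).

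The test was limma's moderated test (limma 3.58.1, R 4.3.3; lmFit and eBayes) in a single fit of all arrays by group, with 19 residual and 3.999 prior degrees of freedom. P-values were adjusted by Benjamini-Hochberg within a comparison and a gene counted as called below 0.05. The fit was tested on simulated data. Tables and figures used Python 3.11.15, pandas 2.3.3, numpy 2.4.6 and matplotlib 3.10.9. The text names all 8 members, the 3 called partners of largest fitted change in each genotype comparison and between 14 and 16 dpc in wild type, the 3 non-member genes most like each member, and 4 germ cell or meiosis markers. Members and lists were chosen with earlier results of these data known. Deviations of same-numbered Wv/Wv and wild-type arrays correlated at 0.72, 0.60 and 0.66 in testes at 16 dpc. Those of Wv/Wv testes and ovaries at 14 dpc correlated at 0.85 and 0.64. No other comparison reached 0.60 for every number. In both cases same-numbered arrays were of the same kind, narrow or wide, so pairing and array kind cannot be told apart. The labels do not say what a number marks. Alternatives were a term for array kind, low-signal genes left out, every probe set tested, cyclic loess, housekeeping centring, a replicate block, a trended prior, only the arrays compared, array weights and each array left out. The fit with the term for array kind also left out wild-type testis array 1 at 16 dpc, the array of lowest SD (1.77) and lowest housekeeping mean (10.03).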

Additional observations from a re-analysis of the deposited data

Results flagged for a closer look

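The change between 14 and 16 dpc differed between genotypes in testes for Nanog and L1td1, by a test of the difference itself. For Nanog the Wv/Wv change was higher than the wild-type change by 1.99, and for L1td1 by 3.67, on the log2 scale. Wv/Wv testes had 3.83, 3.87 and 3.81 for Nanog at 16 dpc and 4.02 and 3.94 at 14 dpc, while wild-type testes had 3.92, 4.28 and 3.99 at 16 dpc and 6.48, 5.60 and 6.52 at 14 dpc. For L1td1 Wv/Wv testes had 4.69, 5.14 and 4.97 at 16 dpc and 5.60 and 4.91 at 14 dpc, while wild-type testes had 4.45, 5.02 and 5.11 at 16 dpc and 8.75, 8.82 and 8.96 at 14 dpc. All these arrays other than wild-type testes at 14 dpc and, for L1td1, Wv/Wv array 1 at 14 dpc were under the floor of 5.39, so the sizes are fitted values and not measured ones. Both rest on 2 Wv/Wv arrays at 14 dpc: 1 gene was called without array 1 and 0 without array 2. No group holds 4 or more arrays, so single arrays were not tested as outliers.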

How the results depend on the processing

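The direction of every called member change was kept under every alternative that gave a value. Of 46 called member changes 45 stayed past the threshold with the term for array kind, 46 with the trended prior, 44 with cyclic loess, 41 with array weights (the weights did not converge), 40 with every probe set, 39 with housekeeping centring and 21 with only the arrays compared. With the replicate block 45 did, and no count of called members moved by over 1.5 times (8 of 8 at 14 dpc in each gonad). L1td1 between 14 and 16 dpc in wild-type ovaries was the call lost (adjusted p = 0.0581). Results with the term for array kind come from a fit without wild-type testis array 1 at 16 dpc.

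Leaving out low-signal genes removed Nanog, Sox2 and Zfp42 from the test, which left 2, 5 and 1 calls by genotype for ovaries at 12, 14 and 16 dpc, 1 and 5 for testes at 12 and 14 dpc, 3 and 2 in wild-type ovaries at 16 against 14 and 12 dpc, 1 and 1 in wild-type testes, and 1 for age by genotype in testes. Of the 13060 genes left, 13, 684 and 308 were called lower in these ovary genotype comparisons, and 3 and 72 in the testis ones. With age 36 and 882 were called lower in wild-type ovaries and 41 and 116 in wild-type testes. For age by genotype in testes 5 were called. With only the arrays compared, the genotype comparison called 0 and 1 for ovaries at 12 and 16 dpc, 0 for testes at 16 dpc, 2 between wild-type gonads at 14 dpc, 0 in wild-type ovaries at 16 against 14 dpc, 1, 1 and 0 in wild-type testes at 14 against 12, 16 against 14 and 16 against 12 dpc, 1 in Wv/Wv testes with age and 1 for age by genotype in testes. Array weights gave 7 by genotype in ovaries at 16 dpc and 6 in testes at 12 dpc, 3, 2 and 2 between gonads (wild type at 14 and 16 dpc, Wv/Wv at 16 dpc), 3 and 8 in wild-type ovaries at 14 against 12 and 16 against 14 dpc, 3 and 5 in wild-type testes, 3 in Wv/Wv ovaries and 3 in Wv/Wv testes with age, 3 for gonad by age, 3 for gonad by genotype at 16 dpc, and 5 and 1 for age by genotype in ovaries and testes. Housekeeping centring gave 5 by genotype in ovaries at 16 dpc and 1 in testes at 12 dpc, 2 and 1 between gonads (wild type at 14 dpc, Wv/Wv at 16 dpc), 1 in wild-type testes at 16 against 12 dpc, 1 in Wv/Wv ovaries with age, 1 for gonad by genotype at 14 dpc and 1 for age by genotype in testes. Of all 18194 genes it called 768 and 8 lower in these genotype comparisons, and 1476 and 1778 in these gonad comparisons. It called 619 in wild-type testes at 16 against 12 dpc (104 lower) and 1126 in Wv/Wv ovaries with age. The term for array kind gave 2, 2 and 1 between gonads (wild type at 14 and 16 dpc, Wv/Wv at 16 dpc), 1 in Wv/Wv ovaries and 1 in Wv/Wv testes with age, 1 for gonad by age and 1 for gonad by genotype at 14 dpc. With that term 3270, 2928 and 3728 of all 18194 genes were called in these gonad comparisons, and 3086 and 3141 in these age comparisons. The member counts there are thus near the share of all genes. For gonad by age 114 genes were called, and for gonad by genotype at 14 dpc 351. Cyclic loess and every probe set gave 1 by genotype in testes at 12 dpc, and cyclic loess gave 1 in Wv/Wv testes with age. In testes at 12 dpc cyclic loess called 5 of 18194 genes, and the test of every probe set called 2 of 45101 probe sets. Cyclic loess called 1795 of 18194 genes in Wv/Wv testes with age. Apart from the filter and the smaller fits, the cause was not tested. Counts over all genes are not given here for array weights, for only the arrays compared or for the interactions with housekeeping centring. Those member counts are not read as results about the members.

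Leaving out 1 array at a time gave these ranges of calls by genotype: 0 to 3, 6 to 8 and 1 to 5 for ovaries at 12, 14 and 16 dpc, and 0 to 1, 5 to 7 and 2 to 5 for testes. It gave 1 to 2 and 0 to 1 between wild-type gonads at 14 and 16 dpc, and 0 to 1 between Wv/Wv gonads at 16 dpc. With age it gave 1 to 7 and 2 to 5 in wild-type ovaries at 16 against 14 and 12 dpc, 3 to 4 and 2 to 3 in wild-type testes, and 0 to 1 in Wv/Wv ovaries and testes. The range was 0 to 1 for gonad by age, 0 to 1 for gonad by genotype at 16 dpc, 0 to 5 for age by genotype in ovaries and 0 to 2 in testes. A group left with 1 array was taken to vary like the others. Nanog, Sox2 and Zfp42 were under the floor on all 16 Wv/Wv arrays, so their fold differences by genotype are bounds.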
